A study of Mus musculus with 14 samples.

Results

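Group 2 of the nuclei from livers of mice with diet-induced steatohepatitis was a stellate cell group by its genes. The nucleus table numbers 12 groups in each of 2 libraries, without names, and this group is its columns for wild type and for Ms4a7 knockout (KO), 2 of 24. Values are means over the nuclei of a group, with each nucleus scaled to 10000 UMIs (unique molecular identifiers, which count RNA molecules). They are called levels here, and their depth, like the number of nuclei in a group, is unknown. Of 21891 genes used, 17073 had a level above 0 in the wild type stellate nuclei and 17318 in the KO ones. The genes described are those among the 2000 highest of the group. Of the 1816 within that limit in both libraries, 29 were leading genes, defined as at least 2 times the level of the highest other group in each library.

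The wild type and Ms4a7 KO nuclei came from mice on a nonalcoholic steatohepatitis (NASH) diet for 22 weeks. Each library pooled 3 livers, and the nuclei were taken from frozen tissue, stained with propidium iodide and sorted. Bulk RNA of whole liver was also measured in 12 libraries, 3 in each of 4 groups: wild type on the NASH diet, Ms4a7 KO on the NASH diet, and wild type mice on chow with 6 days of tail-vein injections of PBS or of LD, which the series title gives as lipid droplets. The labels state neither the strain, the age nor how the Ms4a7 allele was made. With 1 library per genotype, no test of KO against wild type nuclei was possible, and differences between them have no replicate check.

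Hepatic stellate cells are the pericytes of the liver sinusoid. When quiescent they store vitamin A as retinyl esters in fat droplets, and they secrete hepatocyte growth factor and other ligands that act on neighbouring cells. After injury they can turn into contractile myofibroblasts, the main source of scar collagen in the liver.

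The 6 marker genes, named with the group, had their highest level in this group in both libraries. Reln, a secreted matrix glycoprotein (chr5:21884454-22344702, mm10), was at 42.5 in wild type and 54.9 in KO nuclei. Lrat, the enzyme that esterifies retinol for storage, was at 2.16 and 2.76. Hand2, a transcription factor of stellate cells, was at 0.472 and 1.12. Hand2 was therefore below the level limit in 1 library. Its antisense neighbour Hand2os1 was at 8.86 and 12.2 and was a leading gene. The annotated starts of Hand2 and Hand2os1 lie 124 bases apart on opposite strands, so the 250 bases before Hand2 also hold the start of Hand2os1. The 250 bases upstream of 3 marker genes are printed, beside those of Ccn1 and Col1a2, on which later comparisons turn. Each runs 5′ to 3′ on the gene's strand and ends just before the start, from RefSeq on GRCm38.p6. Capitals mark every match, on either strand, to the TEAD motif GGAATG, an E-box CAGCTG, another E-box CATCTG, the GATA motif AGATAA, the LIM homeodomain motif TAATTA, the CCAAT box, the TATA box TATAAA and the heat shock motif GAANNTTC. The stretches are chr5:22344706-22344955 (minus strand) for Reln, chr3:82903975-82904224 (minus) for Lrat, chr8:57320733-57320982 (plus) for Hand2, chr3:145649986-145650235 (minus) for Ccn1 and chr6:4505368-4505617 (plus) for Col1a2.
Reln: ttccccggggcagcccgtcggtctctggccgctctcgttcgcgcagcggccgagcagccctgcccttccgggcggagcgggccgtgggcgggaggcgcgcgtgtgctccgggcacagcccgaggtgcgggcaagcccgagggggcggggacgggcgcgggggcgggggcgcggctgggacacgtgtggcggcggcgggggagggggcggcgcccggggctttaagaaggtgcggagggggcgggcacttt
Lrat: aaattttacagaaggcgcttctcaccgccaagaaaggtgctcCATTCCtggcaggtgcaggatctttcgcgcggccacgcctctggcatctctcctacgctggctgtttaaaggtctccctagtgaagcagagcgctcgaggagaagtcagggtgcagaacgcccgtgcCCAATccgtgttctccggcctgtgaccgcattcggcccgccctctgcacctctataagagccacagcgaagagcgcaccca
Hand2: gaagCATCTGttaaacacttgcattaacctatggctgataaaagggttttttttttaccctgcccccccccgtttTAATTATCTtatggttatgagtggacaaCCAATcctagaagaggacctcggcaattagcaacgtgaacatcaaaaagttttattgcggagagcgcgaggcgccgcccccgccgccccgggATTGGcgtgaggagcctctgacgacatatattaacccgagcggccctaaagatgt
Ccn1: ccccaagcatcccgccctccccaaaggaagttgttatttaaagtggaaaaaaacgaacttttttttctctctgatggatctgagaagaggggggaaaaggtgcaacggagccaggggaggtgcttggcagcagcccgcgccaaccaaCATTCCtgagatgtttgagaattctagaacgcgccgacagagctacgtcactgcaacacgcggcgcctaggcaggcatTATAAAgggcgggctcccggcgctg
Col1a2: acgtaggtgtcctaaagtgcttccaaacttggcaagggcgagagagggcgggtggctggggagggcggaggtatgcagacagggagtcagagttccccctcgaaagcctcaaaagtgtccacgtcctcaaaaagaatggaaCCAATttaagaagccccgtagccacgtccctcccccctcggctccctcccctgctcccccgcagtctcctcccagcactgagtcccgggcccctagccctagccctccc
The Reln stretch held none of the 8 motifs, and 80% of its bases were G or C. Lrat held CATTCC, which is the TEAD motif on the other strand, 208 bases before its start, and the CCAAT box at 81. Hand2 held the second E-box at 246, the LIM homeodomain motif at 175, overlapping the GATA motif on the other strand at 172, and CCAAT boxes at 147 and, on the other strand, at 55. Ccn1 held the TEAD motif on the other strand at 103 and the TATA box at 25. Col1a2 held the CCAAT box at 109. A match describes letters only and shows no binding.

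The same motifs were counted over gene sets with an entry in the RefSeq promoter table. Of the 27025 promoters in it, 12.6% held the TEAD motif, 12.9% the first E-box, 14.6% the other, 10.2% the GATA motif, 4.98% the LIM homeodomain motif, 34.2% the CCAAT box, 12.9% the TATA box and 6.79% the heat shock motif. The 104 matched genes of the wider stellate set defined below had a median of 62% G or C against 52% over all promoters. Of these 104, 9.62% held the TEAD motif, 17.3% the first E-box, 7.69% the other, 4.81% the GATA motif, 0.962% the LIM homeodomain motif, 27.9% the CCAAT box, 6.73% the TATA box and 2.88% the heat shock motif. In the stellate identity list 5 of 22 matched promoters (22.7%) held the GATA motif. Of the same 22, 9.09% held the TEAD motif, 18.2% the first E-box, 18.2% the other and 4.55% the LIM homeodomain motif. The CCAAT box was in 22.7% of them, the TATA box in 4.55% and the heat shock motif in 4.55%.

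The stellate markers were not confined to group 2, because group 8 carried them at a lower level. Reln in group 8 was at 21.8 in wild type and 29.4 in KO nuclei, Robo2 at 15.1 and 14.1, and Lama2 at 3.41 and 1.73. As a share of the level in the stellate nuclei, the 6 markers in group 8 ran from 35.8% to 53.5%. In groups other than 2 and 8, the share reached at most 12.4%, for Lrat, except for Dcn. Dcn, the small matrix proteoglycan decorin, was also high in group 11, at 5.49 and 10.3 against 16.8 and 22.8 in the stellate nuclei. Group 11 had the highest summed level of the mesothelial list.

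**Figure D1:**
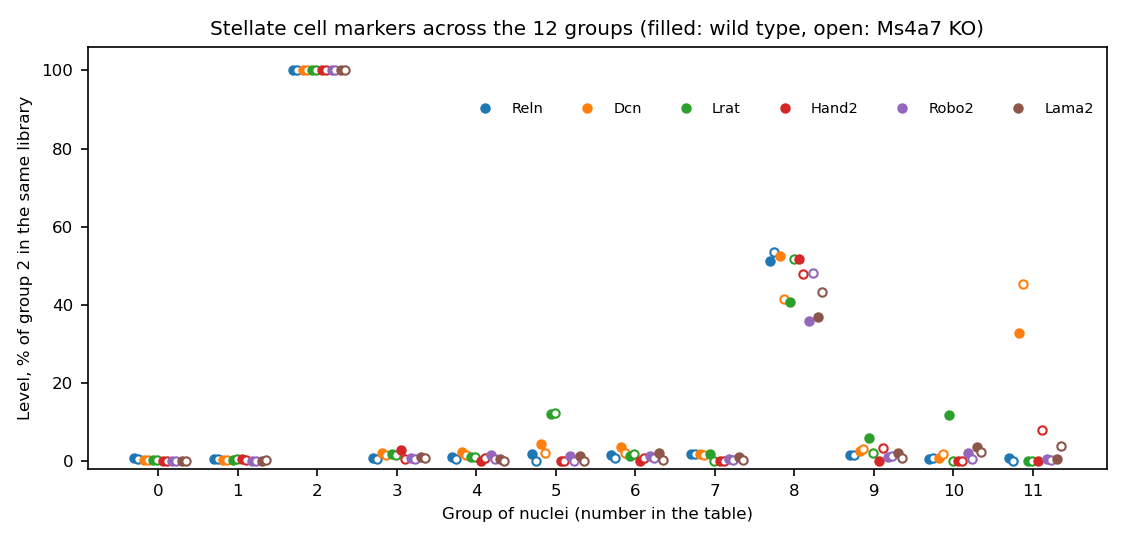
Levels of the 6 stellate markers in the 12 numbered groups of nuclei, as a percentage of the level in group 2 of the same library (vertical axis), with wild type filled and Ms4a7 KO open. The markers are at 100% in group 2 by construction, between 35.8% and 53.5% in group 8, and Dcn alone stands out in group 11.

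Group 8 also carried macrophage transcripts. The summed level of 20 Kupffer cell and macrophage markers there was 36.1% of that in group 3, the group highest for them, in wild type and 34.8% in KO nuclei. In the stellate nuclei it was 2.05% and 1.67%. Where the macrophage transcripts of group 8 come from was not tested, and single nuclei were not analysed here. For 23 of the 29 leading genes group 8 was the next highest group in both libraries. With group 8 left out, 150 of 1816 genes led. These 150 are the wider stellate set, and 48 of them were at least 10 times every remaining group. The share of genes that led was 1.6% with all groups and 8.26% without group 8. Because the groups were formed from the same values, the leading genes describe the group and are not a test of it.

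Transcription factors, guidance receptors and matrix genes were among the 29 leading genes. Lhx2, a LIM-homeodomain factor known to hold stellate cells quiescent, was at 1.21 in wild type and 1.37 in KO nuclei. Tbx20, a T-box factor, was at 6.02 and 3.68. Robo2, a receptor for Slit guidance ligands, was at 42.2 and 29.2. Robo2 was at least 49.8 times the highest group once group 8 was left out. Among signalling genes, Pdgfrb, the receptor through which PDGF drives stellate cell growth, was at 4.01 and 2.75. Pde1a, a phosphodiesterase that degrades cyclic nucleotides, was at 14.4 and 13.1. It stood at 66.5 times or more every group other than 8, the largest such ratio of the wider set. Cxcl12, a chemokine for CXCR4-bearing leukocytes, was at 3.39 and 4.69. Arhgap24, a GTPase-activating protein for Rac, was at 28.0 and 33.9. Levels are not scaled to gene length, so they are compared between groups and libraries and not between genes.

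The matrix genes that led were Lama2, Lamb1, Tnc, Tnxb and Col1a2, with the proteases Adamts5 and Adamts12. Tnc, the glycoprotein tenascin C, was at 2.16 in wild type and 1.60 in KO nuclei. Col1a2, a chain of type I collagen, was at 3.80 and 2.35. Other leading genes were Mrc2, Sdk2, Pknox2, Daam2, Hand2os1, Lhfp, Arvcf, Ms4a4d, Olfr1033, Pcdh7, Runx1t1 and 3 gene models without a functional name. The rule's edge was narrow. Runx1t1 was just inside it, with a smaller ratio of 2.001, and Gli3 and Bmp5 just outside, at 1.99 and 1.98.

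Identity genes beyond the markers were also highest in the stellate nuclei. Of 29 stellate identity genes in the table, 28 had their highest level in this group in both libraries, a share not counted over all genes. The exception was Wt1, a transcription factor that mesothelial cells also carry, at 1.17 and 0.611 against 4.85 and 7.70 in group 11. Des, the intermediate filament desmin used to stain stellate cells, was at 0.410 in wild type and 0.437 in KO nuclei, against at most 0.279 elsewhere. Acta2, the smooth muscle actin of myofibroblasts, was at 0.148 and 0.443, and Tagln, another smooth muscle gene, at 0.225 and 0.670. All 3 lay below the level limit.

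Ligands that act on hepatocytes and vessels were among the genes highest in the stellate nuclei. Hgf, hepatocyte growth factor, was at 16.6 and 18.1, against 10.2 and 9.55 in group 8 and at most 3.88 in the other groups. Rspo3, a Wnt-pathway enhancer, was at 5.24 and 7.89. Bmp5, a bone morphogenetic protein, was at 15.6 and 17.2. Nr1h4, the bile acid receptor FXR, was at 18.2 and 22.8 in stellate nuclei. In groups 0 and 1, the latter with the highest hepatocyte marker sum, it was at 9.41 to 11.5, and in group 8 at 9.74 and 12.2. Among vasoactive receptors and their effectors, 17 of 30 listed genes were highest in the stellate group in both libraries. The same count was 12 of 21 for collagens, 17 of 39 for axon guidance and neuronal adhesion genes and 0 of 20 for hepatocyte markers. It was not made over all genes. Agtr1a, the angiotensin II receptor, was at 9.29 and 11.8, Ednra, an endothelin receptor, at 5.12 and 5.77, and Prkg1, the cGMP-dependent kinase, at 56.3 and 69.7.

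Markers of other mesenchymal and parenchymal cells were measured in the same nuclei. The summed level of 18 sinusoidal endothelial markers was 5.73 in wild type and 6.06 in KO nuclei, against 186 and 222 in group 4. The sum of 22 lymphocyte, neutrophil and dendritic cell markers was 0.686 and 0.498. The sum of 14 mesothelial markers was 3.57 and 3.87, with 7 and 6 of them listed at 0, against 141 and 154 in group 11. Vascular smooth muscle markers summed to 6.57 and 7.57. Hepatocyte transcripts were present throughout. The sum of 20 hepatocyte markers was 36.7 in wild type and 91.8 in KO nuclei, a ratio of 2.50, with none at 0. That sum was higher in KO in all of the other 11 groups, by 1.42 to 2.71 times.

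Ms4a7, the gene knocked out, encodes a macrophage membrane protein (chr19:11321039-11336146, mm10, minus strand). In stellate nuclei its level was 0.0139 in wild type, and it was listed at 0 in KO. In group 3 it was at 1.25 in wild type and 0.622 in KO nuclei. Transcript of the gene remained in the KO library, and which part of the gene was deleted is not given in the sources used here.

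The comparison of KO with wild type stellate nuclei asks how loss of a macrophage protein goes with the expression of stellate cells on the NASH diet. Of the 2000 highest genes, 40 were at least 2-fold higher in KO (2%) and 36 at least 2-fold lower (1.8%). The median log2 ratio was -0.08. All ratios below are log2 of KO over wild type with a pseudocount of 0.00322. Genes of the hepatocyte list made up 11 of the 40 higher genes, of 15 list members among the 2000 highest. The list leaves out other hepatocyte genes among the 40, such as Apoc1 and Apoc3. The 11 are therefore not all of the hepatocyte genes among them.

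**Figure D2:**
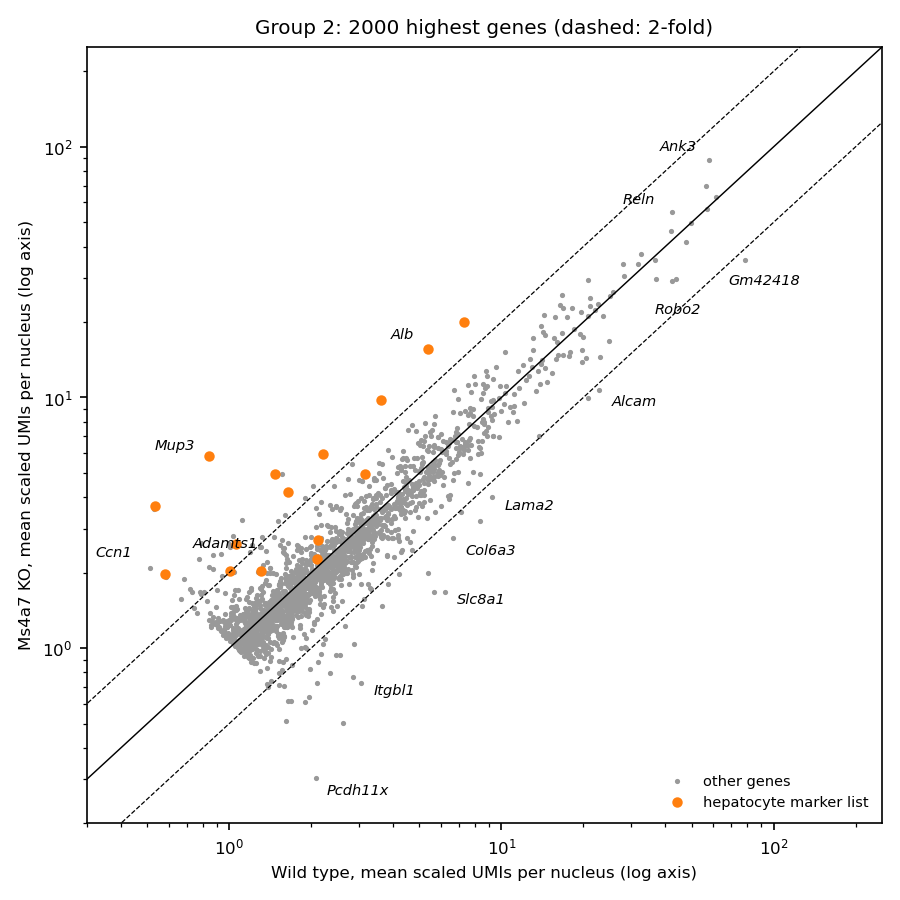
Level of each of the 2000 highest genes of the stellate nuclei in the wild type library (horizontal, log axis) and the Ms4a7 KO library (vertical, log axis); the solid line marks equal levels, the dashed lines a 2-fold difference, and orange points genes of the hepatocyte list. Most genes lie between the dashed lines, hepatocyte genes lie above the solid line, and Pcdh11x (2.09 and 0.303) lies farthest below.

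The 3 largest ratios were those of hepatocyte secretory genes. Mup3, a major urinary protein, went from 0.843 in wild type to 5.84 in KO nuclei (2.79), and in the other 11 groups it was also higher in KO, with a median of 2.58. Alb, serum albumin, went from 5.40 to 15.6 (1.53), with a median of 1.19 in the other groups. Serpina3k and Serpina1c were at 2.78 and 2.76. Less the median of the other groups, Serpina3k was at -0.0372. Of the 40 higher genes, 18 were also at least 2-fold higher by the median of the other groups. The part of hepatocyte RNA in these differences was not tested beyond those values.

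Some stellate genes were higher in KO by more than in the other groups. For many of these genes the other groups, except 8, have levels near 0, so that their ratios rest on little RNA. Ccn1, a matricellular protein induced by YAP and TEAD factors, was at 0.511 in wild type and 2.09 in KO nuclei, a log2 ratio of 2.03 against a median of -0.21 elsewhere. Ccn2, connective tissue growth factor and a gene of the same family, was at 0.268 and 1.13 (2.06), below the level limit. In group 8, which shares stellate transcripts, Ccn1 was at 0.261 and 0.801 (1.60) and Ccn2 at 0.334 and 0.973 (1.54).

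Receptors and secreted proteins of stellate cells were also among the higher genes. Adamts1, a secreted metalloprotease, was at 0.844 and 2.11 (1.32), with a median of -0.33 elsewhere. Bco1, which cleaves beta-carotene into retinal, was at 1.03 and 2.80 (1.43), with a median of 0.24 elsewhere. Hhip, an inhibitor of hedgehog ligands, was at 0.869 and 2.35 (1.43), with a median of 0.17 elsewhere. Ednrb, the endothelin B receptor, was at 1.61 and 3.40 (1.08), and by the median of the other groups at -0.35. Each of the 4 was higher in KO in group 8 too, by 0.56 to 1.09. Ecm1, a matrix protein of stellate cells, was at 1.90 and 3.98 (1.06), against a median of 0.50 in the other groups. Igfbp3, which binds insulin-like growth factors, was at 1.52 and 3.21 (1.08), against a median of 0.77.

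Adhesion, guidance and matrix genes were among those lower in KO stellate nuclei. Pcdh11x, a protocadherin, was at 2.09 in wild type and 0.303 in KO nuclei (-2.78), against a median of -1.36 in the other groups. Map2, a microtubule-associated protein, was at 2.61 and 0.504 (-2.37). Map2 was lower by more in the other groups (median -2.87), so that less that median it was at 0.50. Itgbl1, an integrin-beta-like secreted protein of fibroblasts, was at 3.04 and 0.729 (-2.06), with a median of -0.57 elsewhere. Only 1 other group had an Itgbl1 level of at least 0.1 in both libraries, so that median rests on little RNA. Ncam1, a neural cell adhesion molecule that portal fibroblasts and activated stellate cells carry, was at 2.85 and 0.769 (-1.89), with a median of -0.64 elsewhere. Runx2, a transcription factor of osteoblasts and activated fibroblasts, was at 1.62 and 0.513 (-1.65), against a median of 0.55 in the other groups. Slc8a1, the sodium-calcium exchanger, was at 6.19 and 1.68 (-1.88) in the stellate nuclei, at 11.3 and 11.2 in group 8 and at 37.5 and 35.9 in group 3.

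Within the matrix, the lower genes included Adamtsl2, Svep1, Itga8, Col6a3 and Lama2. Adamtsl2, a regulator of microfibrils, was at 2.35 and 0.799 (-1.55). Itga8, the integrin subunit that binds nephronectin and fibronectin, was at 8.33 and 3.23 (-1.37). Col6a3, a chain of type VI collagen, was at 6.65 and 2.74 (-1.28). Lama2, the laminin chain that is a stellate marker, was at 9.24 and 4.01 (-1.20). In group 8 each of these 4 was again lower in KO, by -0.37 for Adamtsl2, -0.94 for Itga8, -0.62 for Col6a3 and -0.98 for Lama2. By the median of the other 11 groups, Col6a3 was at -1.40, Lama2 at -1.88, Itga8 at -0.80 and Adamtsl2 at 0. Few other groups had a level of at least 0.1 in both libraries: 2 for Col6a3 and 1 each for Lama2 and Adamtsl2. The medians of these 3 genes therefore rest on little RNA and do not show a larger or smaller fall in other cells. Col15a1, a collagen of portal fibroblasts, had the largest ratio of the listed collagens, from 1.79 to 0.198 (-3.15), just below the level limit.

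**Figure D3:**
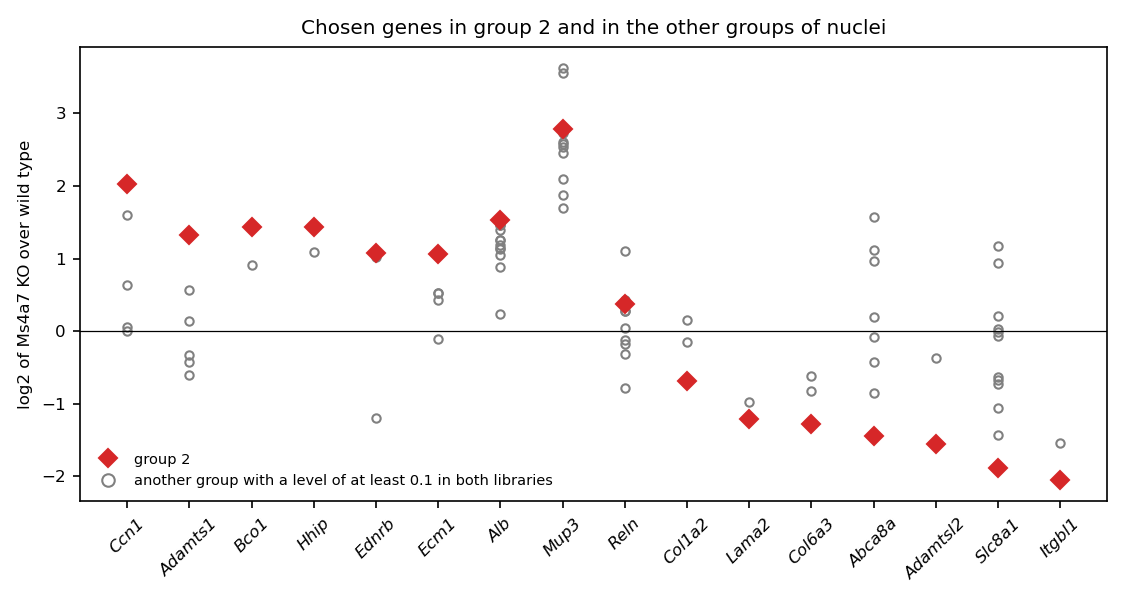
Log2 of Ms4a7 KO over wild type for 16 genes in the stellate nuclei (red diamonds) and in every other group with a level of at least 0.1 in both libraries (open circles). The circles of Alb and Mup3 all lie above 0 like the diamond, and for Ccn1 (4 circles), Adamts1 (5) and Slc8a1 (11) the diamond lies outside the range of the circles.

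Gene lists were compared by their members among the 2000 highest genes. Retinoid storage and handling held 6 such members, all higher in KO, with a median log2 ratio of 0.37 against 0.15 for the same genes in the other groups. Over all 18 members in the table, 12 were higher and 6 lower, and their summed level had a KO to wild type ratio of 1.33 against a median of 1.32 in the other groups. The 6 included Rbp4 (1.73), a secreted retinol carrier that is mainly a hepatocyte product, Bco1 (1.43), Lrat (0.35) and Rarb (0.38). Of 22 stellate identity genes, 16 were higher and 6 lower, with a median of 0.32 against -0.31 for the same genes in the other groups. Groups other than 8 hold little RNA of stellate genes, by median at most 3.18% of the group 2 level over the wider set. The summed level of the identity list went from 460 in wild type to 523 in KO, a ratio of 1.14. The highest such sum among the other groups was 255 in wild type and 279 in KO. Ank3, an ankyrin that anchors membrane proteins, was at 58.1 and 88.9 (0.61), and Reln at 0.37. Of 15 vasoactive receptor genes, 12 were higher, with a median of 0.32 against -0.04 in the other groups. The sum of that list went from 131 to 159, and the highest sum among the other groups was 87.0 in wild type and 92.5 in KO. Vipr1, a receptor for vasoactive intestinal peptide, was at 2.18 and 3.83 (0.82).

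Collagen and portal fibroblast lists leaned the other way, and the protease list did so by its median. Of 11 collagens, 8 were lower in KO and 3 higher, with a median of -0.65 against -0.35 in the other groups and 1 past 2-fold. The summed collagen level had a ratio of 0.843, against a median of 0.885 in the other groups. Col3a1 was at 11.2 and 9.28 (-0.27) and Col1a1 at 1.42 and 0.737 (-0.95). Col14a1, a fibril-associated collagen, was at 19.7 and 22.0 (0.16). The 10 matrix proteases and inhibitors had a median of -0.56 against -0.18 in the other groups, with 6 lower and 4 higher. The 15 other matrix genes within the limit did not lean, with 7 higher and 8 lower. Over all 35 members in the table, 13 were higher and 21 lower, with a median of -0.39, while their sum had a ratio of 1.09. The 4 portal fibroblast markers within the limit, Bicc1, Itgbl1, Smoc2 and Eln, were all lower, with a median of -0.98 against -0.36 in the other groups. Bicc1, at 13.8 and 6.99 (-0.98), made up most of the list's sum and was lower by more elsewhere (median -2.40). The summed level of all 18 portal fibroblast markers went from 23.3 to 10.6, a ratio of 0.455, within the range of 0.324 to 1.19 in the other groups. Group 7 had the highest sum in wild type and group 11 in KO. Cholangiocyte markers were lower in the same nuclei, with a sum of 20.2 in wild type and 12.5 in KO, 0 of 14 higher and 13 lower. Their part in the portal fibroblast difference was not tested. Of the 22 mesenchymal transcription factors, 18 were lower, with a median of -0.23 against -0.29 for the other groups. Of 15 TGF-beta, BMP and PDGF signalling genes, 11 were lower and 4 higher, with a median of -0.40 against -0.21. Of 14 integrin and matrix adhesion genes, 10 were lower and 4 higher, with a median of -0.08 against -0.31. The median over all 2000 genes was also -0.08, so the integrin list did not lean away from it. The share of all 2000 genes that were lower was not counted, so the splits of these lists have no background share beside them. Since lists share genes, such as Lama2 in the stellate identity and matrix lists, they are not separate observations.

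**Figure D4:**
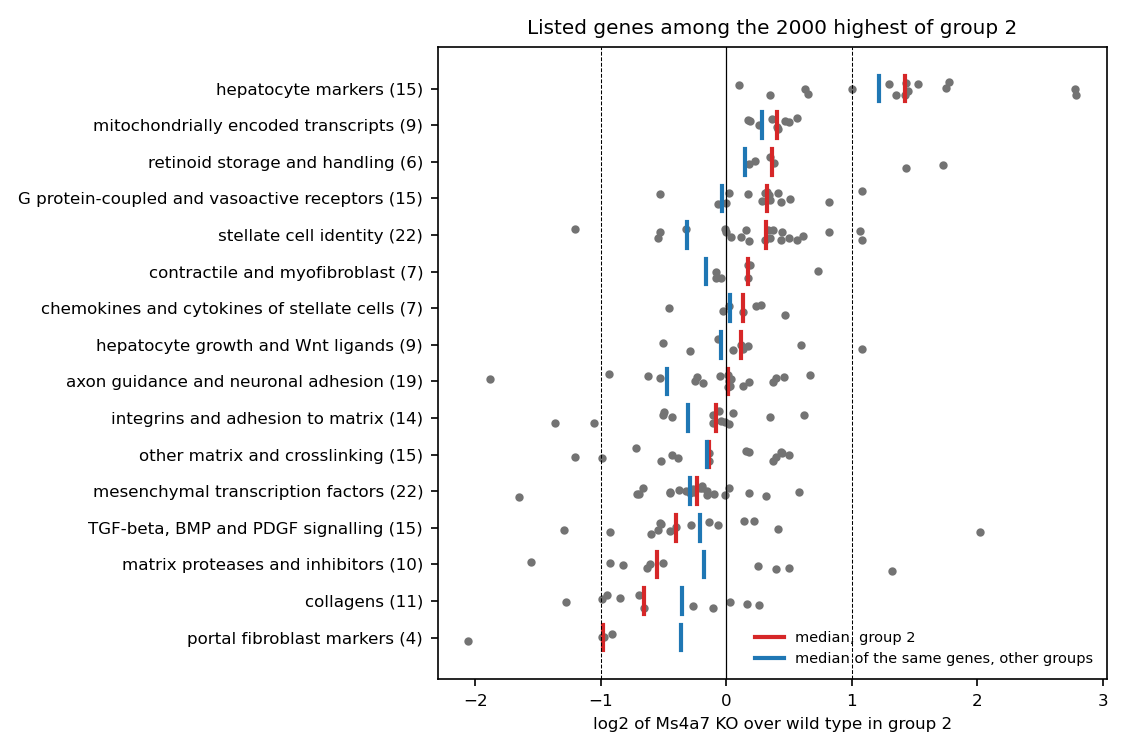
Log2 of Ms4a7 KO over wild type in the stellate nuclei for listed genes among the 2000 highest (grey points; numbers in brackets count them), with the list's median in the stellate nuclei in red and the median of the same genes over the other groups in blue. Hepatocyte genes lie highest (median 1.42) and collagens (-0.65) and portal fibroblast markers (-0.98) lowest.

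Short genes made up most of the higher genes and long genes most of the lower ones. Of the 40 higher genes, 33 fell in the shortest of 4 equal classes of span, those of 348 to 56323 bases, where the median log2 ratio was 0.08. Of the 36 lower genes, 25 fell in the longest class, those of 176339 bases or more, with a median of -0.14. In the other groups the longest class was likewise lower, with medians of -0.32 to -0.10. Heat shock and immediate early genes summed to 2.67 in wild type and 6.17 in KO stellate nuclei, a ratio of 2.31, against 1.06 to 2.89 in the other groups. Gm42418, a gene model that overlaps ribosomal RNA, was at 78.8 and 35.4 in the stellate nuclei and was lower in KO in all 12 groups. Mitochondrially encoded transcripts summed to 75.0 and 99.5. The part of span, stress genes or mitochondrial RNA in the differences was not tested. After the median of the same class of span was taken off, 34 genes were at least 2-fold higher and 29 lower.

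The bulk libraries, which had no part in forming the nucleus groups, gave replicated measurements of the same genes in whole liver. Ms4a7 was higher in the 3 libraries labelled KO (102 to 136) than in those labelled wild type (9.70 to 25.8), against the labels. The log2 difference was 2.63 ± 0.37 (SE), with a limma adjusted p (Benjamini-Hochberg) of 0.0149. It missed the threshold without KO replicate 2 or KO replicate 3, with an adjusted p of up to 0.0659 by limma. It was also lower in the libraries labelled LD (7.60 to 10.5) than in those labelled PBS (62.2 to 163), with a limma adjusted p of 0.00428. The submitters' table name for the first pair refers to LD and that for the second to Ms4a7. Groups are therefore named by their label alone, and a direction is that of the labels. Values are normalized counts, scaled per library, the 2 tables were scaled separately, and levels are not compared between them. In whole liver, fewer stellate cells and less RNA per stellate cell cannot be told apart. The labels do not say that the 3 libraries of a group are separate animals, so p-values measure the spread between libraries.

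No leading gene passed the test between the libraries labelled KO and wild type. Of 29 leading genes, 22 were tested and 0 passed with limma (Benjamini-Hochberg adjusted p under 0.05), 6 had an unadjusted p under 0.05, edgeR called 0 and DESeq2 3. Over all 15827 genes tested, limma called 3.02% higher and 0.701% lower. Of the same 15827 genes, 2960 had an unadjusted limma p under 0.05, edgeR called 648 and DESeq2 1241. Without the library of wild type replicate 2, 2 leading genes passed with limma. In the same libraries 13 of 18 tested Kupffer cell and macrophage markers were called higher, and their part in the results below was not tested.

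Col1a2 was at 139, 191 and 189 under the wild type label and at 259, 245 and 335 under the KO label. All 3 libraries labelled KO were above the others, but the log2 difference of 0.69 ± 0.18 had a limma adjusted p of 0.0882 (Benjamini-Hochberg). Cxcl12 was at 4424, 5545 and 4239 against 6583, 6666 and 6004, with a log2 difference of 0.45 and a limma adjusted p of 0.0904. Reln was at 218, 495 and 465 against 488, 450 and 566. These groups overlapped, with a limma adjusted p of 0.50. Hand2 had a log2 difference of 0.02 and Lrat one of 0.22, neither called. Of the 113 tested genes of the wider set, 1 was called higher and 0 lower by limma, with 28 at an unadjusted p under 0.05, 1 called by edgeR and 6 by DESeq2. Without wild type replicate 2, limma called 2, and with any 1 of the other 5 libraries left out 0.

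The 1 called gene was Clca3a1, a chloride channel accessory protein, at 30.3, 23.2 and 39.2 against 81.1, 69.7 and 134. Its log2 difference was 1.56 ± 0.31 with a limma adjusted p of 0.0402, which rose above the threshold without any 1 of the 6 libraries, up to 0.115. Limma called none of the 25 tested stellate identity genes (5 at an unadjusted p under 0.05, 0 by edgeR and 2 by DESeq2). It called 2 of them higher without KO replicate 1, and 2 with the replicate number as a block. It called none of the 18 tested collagens either (8 at an unadjusted p under 0.05, 1 by edgeR and 3 by DESeq2). Other lists held more called genes. Of 16 tested genes on the list of chemokines and cytokines, limma called 7 higher (43.8%) and 0 lower. Of 37 mesenchymal transcription factors, it called 8 higher (21.6%) and 1 lower. Of 16 contractile and myofibroblast genes, it called 2 higher (12.5%) and 0 lower. In the nuclei, few members of these lists were highest in the stellate group in both libraries. The counts were 5 of 21 chemokines and cytokines, 12 of 43 transcription factors and 9 of 20 contractile genes. In which cells of the liver the called genes rose was not tested. Among matrix proteases, Mmp14, a membrane-bound collagenase, rose from 227, 200 and 175 to 474, 750 and 742, with a limma adjusted p of 0.00975. Ccn1, higher in the KO nuclei, was at 217, 129 and 174 under the wild type label against 231, 255 and 130 under the KO label. These groups overlapped, with a limma adjusted p of 0.753. Because Ms4a7 ran against these labels, the bulk Ccn1 values are not a replicate check of the KO nuclei.

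Between the libraries labelled LD and PBS, 3 of 26 tested leading genes fell and 0 rose. Over all 14900 genes tested, limma called 2.21% lower and 1.95% higher. Of the same 14900 genes, 2933 had an unadjusted limma p under 0.05, edgeR called 603 and DESeq2 1221. Among the leading genes, edgeR called 3 and DESeq2 5, and 11 had an unadjusted limma p under 0.05. Col1a2 fell from 4012, 3534 and 4509 normalized counts to 2507, 2306 and 2145. Its log2 difference was -0.79 ± 0.11, with a limma adjusted p (Benjamini-Hochberg) of 0.00587 and at most 0.0283 with any 1 library left out. Pdgfrb fell from 1168, 1074 and 1304 to 792, 848 and 740 (limma adjusted p of 0.0205), and Lhfp, a tetraspan membrane protein, from 609, 525 and 670 to 407, 408 and 365 (0.0298). The last 2 were each lost in 5 of the 6 fits with 1 library left out, all but the one without LD replicate 3, with a limma adjusted p of up to 0.0910 and 0.128. The count of called leading genes was 1 without PBS replicate 1, PBS replicate 3, LD replicate 1 or LD replicate 2, 2 without PBS replicate 2 and 3 without LD replicate 3.

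The defining markers did not pass the test in the same libraries. Reln was at 2160, 2449 and 2478 under PBS and at 2606, 2786 and 2222 under LD, with overlapping groups. Its log2 difference was 0.10 ± 0.11 (limma adjusted p of 0.659). Hand2 was at 338, 404 and 468 against 502, 408 and 552 (limma adjusted p of 0.385). Dcn was lower in each LD library, at 7615, 8338 and 8412 against 9638, 9515 and 10950, with a limma adjusted p of 0.0943. Lrat, Robo2 and Lama2 had log2 differences of -0.21, -0.69 and -0.67, with limma adjusted p of 0.610, 0.172 and 0.172. Of 28 tested stellate identity genes, 2 fell, Pdgfrb and Rgs5, the latter a pericyte regulator of G protein signalling. That count was 0 without PBS replicate 2, PBS replicate 3, LD replicate 1 or LD replicate 2, 1 without PBS replicate 1 and 4 without LD replicate 3.

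In the wider set 11 of 128 tested genes fell and 0 rose, and the count ran from 2 to 16 with 1 library left out. It was 2 without PBS replicate 3 or LD replicate 1, 3 without PBS replicate 2, 4 without LD replicate 2, 6 without PBS replicate 1 and 16 without LD replicate 3, where 2 genes also rose. DESeq2 called 24 lower and edgeR 11. Col6a3 fell from 1568, 1722 and 2099 to 799, 940 and 623, a log2 difference of -1.20 ± 0.16 (limma adjusted p of 0.00587). Col4a1, a chain of basement membrane collagen, fell by 0.51 on the log2 scale, and Gucy1a1, a subunit of the nitric oxide receptor, by 0.72. Both missed the threshold without PBS replicate 1, PBS replicate 2, PBS replicate 3 or LD replicate 1, and Gucy1a1 also without LD replicate 2, with a limma adjusted p of up to 0.103 and 0.110.

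**Figure D5:**
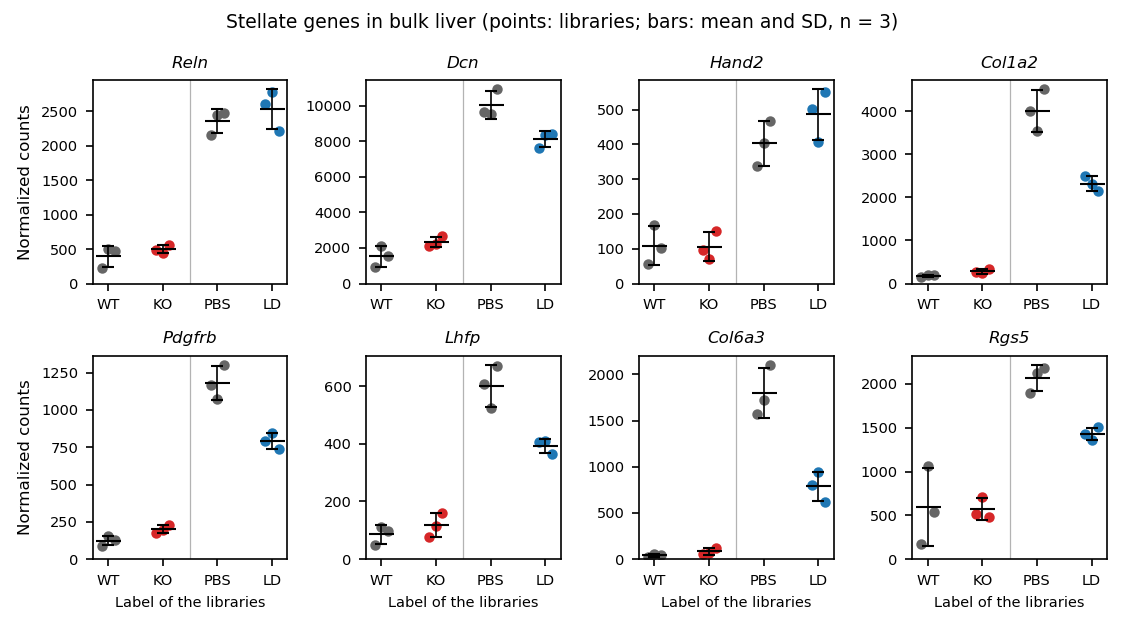
Normalized counts (vertical axis) of 8 stellate genes in bulk liver by library label, with 1 point per library and bars for the mean and SD of 3 libraries; the left and right sides of each panel were scaled separately and are not comparable in level. Col1a2, Pdgfrb, Lhfp, Col6a3 and Rgs5 lie lower in all 3 libraries labelled LD than in those labelled PBS, while Reln and Hand2 overlap.

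Many matrix genes fell under the LD label. Of 19 tested collagens, 10 fell and 1 rose, and DESeq2 called 13 lower. Col3a1 fell from 7991, 7269 and 8717 to 4472, 4368 and 3879 (log2 difference -0.91, limma adjusted p of 0.00293). The 1 that rose was Col27a1, from 987, 1267 and 1096 to 2379, 2332 and 1799 (0.95). Without PBS replicate 2 or PBS replicate 3 the count of lower collagens was 4, and without LD replicate 1 it was 5.

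Other matrix genes and proteases gave 13 of 34 and 6 of 19 lower, and 19 and 11 by DESeq2. The count of other matrix genes was 3 without PBS replicate 2, 5 without PBS replicate 3 and 7 without LD replicate 2. The count of proteases was 2 without PBS replicate 2 or PBS replicate 3, and 3 without LD replicate 1 or LD replicate 2. Nid1, the basement membrane linker nidogen, fell from 2309, 2569 and 2827 to 1145, 1194 and 1176 (-1.13, limma adjusted p of 0.00162). Adamtsl2 fell from 869, 851 and 1041 to 439, 423 and 324 (-1.22, limma adjusted p of 0.0039). Timp3, an inhibitor of metalloproteases bound to matrix, fell by 0.71. Portal fibroblast markers gave 7 of 15 lower. That count was 1 without PBS replicate 2, 2 without PBS replicate 3 or LD replicate 1, and 4 without PBS replicate 1 or LD replicate 2. Cholangiocyte markers gave 7 of 14 lower and endothelial markers 0 of 18. Kupffer cell and macrophage markers gave 5 of 20 lower and 2 higher. The part of these markers' cells in the matrix result was not tested.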

How the data were processed

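Bulk RNA was measured in 12 liver libraries and nuclear RNA in 2. Per the submitters' processing notes, the tools used were FastQC, STAR, DESeq2, Cell Ranger and Seurat 4.0.1, and the genome build was mm10. The counter, the cell filters, the clustering and the treatment of doublets are not given in the sources used here. The nucleus table deposited by the authors holds a signal per gene, the mean over a group's nuclei of UMIs scaled to 10000, since every column sums to 10000. The deposited bulk tables hold a normalized signal, gene counts divided by a size factor per library. These came back as whole reads for 100% of values within 0.01 of a whole number, 21945394 to 23126164 reads per library labelled wild type or KO and 39318264 to 41346464 per library labelled PBS or LD. Bulk depth thus limits mainly genes of few counts.

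From these, leading genes, ratios and list counts were computed in Python 3.11.15, leaving out 24 names turned into dates. The nucleus pseudocount, 0.00322, is the 5th percentile of values above 0. Bulk genes with at least 10 in 3 or more of 6 libraries were tested with limma 3.58.1 (with trend, 2-sided, Benjamini-Hochberg over all genes tested) on log2(value + 1), which understates changes of low genes. The threshold was 0.05, and the test was checked on simulated data. EdgeR 4.0.16 and DESeq2 1.42.0 on the recovered reads were alternatives, beside other pseudocounts, filters, scalings, a replicate block and leaving out each library. Gene spans are from GENCODE M21. The members and the 23 gene lists were chosen with earlier results of these data known. Genes named are the 6 markers, Ms4a7, the leading genes, the 15 largest ratios each way, the 10 each way that differ most from the other groups, up to 6 members of each list by level and 4 by ratio, and the 6 leading genes with the largest called bulk change each way. Some listed genes were named beyond that rule after their values were seen. Some genes that the rule names are not reported here.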

Additional observations from a re-analysis of the deposited data

How the results depend on the processing

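The count of 29 leading genes became 0 at 4 times the highest other group, 150 with group 8 left out, 48 with group 8 left out at 10 times (added after seeing the data), 46 among the 4000 highest genes, 63 in the wild type library alone and 59 in the KO library alone. The 40 genes at least 2-fold higher and 36 lower in KO nuclei became 16 and 16 among the 1000 highest genes and 91 and 61 among the 4000 highest. Less the median of the other 11 groups, 19 were lower, Serpina3k was at -0.0372 and Map2 at 0.50. Centred on the median ratio, 45 were higher and 32 lower. In bulk, DESeq2 called 3 leading genes for the KO label and 5 for the LD label, and leaving out 1 library gave 0 to 2 and 1 to 3. With the replicate number as a block, 0 and 3 leading genes were called, and 14 genes of the wider set were lower under the LD label. Deviations of same-numbered libraries correlated at 0.12, -0.03 and -0.02 in the first table and at 0.05, -0.04 and 0.13 in the second. With 3 libraries per group, these values cannot decide whether same-numbered libraries were paired or shared a batch. The nuclei have no replicates, and their depth is unknown.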
